A study of Danio rerio with 12 samples.

Results

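The constitutive proteasome subunit genes of zebrafish (Danio rerio) brain were described on 12 single-colour Agilent microarrays. Members were all probes that are not controls and whose name begins with psma, psmb, psmc or psmd and a digit. The name was the current RefSeq symbol of the probe's accession, or the systematic name in the files where none matched. Gene names given in the files were not searched, so probes named only there could be missed. The immunoproteasome subunits psmb8 to psmb13 were left out. This gave 39 genes on 46 probes, of 37285 genes or probe names on 43603 probes in all. A gene was tested where a probe was well above background, the scanner's own criterion, on at least 3 of the 12 arrays, which held for 37 of the 39. Of the 40 subunit genes listed for zebrafish, 2 (psmb5 and psmd12) had no probe matched in this way and were not analysed here.

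The study asked how a viral mimic and behavioural fever alter brain transcripts in adult fish, and took whole brains 24 h after treatment. The groups were C (not injected), Sd (sham-injected with PBS, with access to a thermal gradient), Ti (injected with the synthetic double-stranded RNA poly(I:C), dsRNA, at 1 mg per kg according to the labels, and held at constant temperature) and Td (the same injection, with access to the gradient). Each group held 3 pools of 3 brains from 9 fish, 1 array per pool. The labels place C in the gradient and the study's methods place it outside, so that Sd and C differed by the injection and possibly by the gradient, and the dose also differs between these sources. The array files and the table deposited for the whole series give the Ti and Td identities the opposite way round. Here the arrays' own labels were kept, every sign between Ti and Td turns under the other reading, and the comparison of all dsRNA with all other arrays does not depend on it.

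The proteasome degrades proteins that carry ubiquitin chains. Its barrel-shaped 20S core has outer rings of alpha subunits, encoded by psma genes, which gate the entrance, and inner rings of beta subunits, encoded by psmb genes, some of which are proteolytic. The 19S regulatory particle caps the core: its base holds the ATPases (psmc genes) that unfold substrates, and its lid holds psmd14, which removes ubiquitin. In mammals, cytokines of the antiviral response induce alternative catalytic subunits that replace psmb5, psmb6 and psmb7 and form the immunoproteasome, whereas the constitutive genes described here are used by most cells, neurons included.

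The 37 tested genes comprised 10 of the alpha ring, 6 of the beta ring, 7 base ATPases, 4 base subunits without ATPase activity, 8 lid subunits and 2 assembly chaperones of the 19S particle. Of these, 31 were well above background on all 12 arrays. psma6b, psmd3, psmd8, psmd10 and psmd11b missed the criterion on 1 or more arrays, and the psmd6 spot on the first C array was left out as an outlier, so that n = 2 for psmd6 in C. The 2 untested genes were psmd5, a chaperone of 19S assembly (0 arrays, signal 11.9 to 71.8), and psmc3ip (2 arrays, signal 14.5 to 182), which fits the naming rule but encodes a recombination factor and not a proteasome subunit. Values below are log2 signals relative to each array's 75th percentile over the probes well above background on every array. They show how a gene varied over arrays, not which gene was more abundant.

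The arrays differed in brightness. The share of features well above background ranged from 14.5% on the third Ti array to 50% on the first Td array, and the third Ti array had 35 member probes above background where the others had 38 to 45. Its reference percentile was 587, against 1895 to 8232 on the others. Markers of other cell types were measured on the same arrays, and in bulk brain a lower share of a cell type and less RNA per cell cannot be told apart.

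No constitutive subunit gene passed an adjusted p of 0.05 in any of the 5 comparisons or in the test of any difference among the 4 groups. The adjusted p is that of limma, Benjamini-Hochberg adjusted over all 16130 genes tested. A RefSeq symbol was held by 8108 of the 16130, and the others, counted by their systematic name, may repeat genes. The test among the 4 groups called 2.47% of all genes, and 0 of 37 members. At an unadjusted p under 0.05 that test took 3 members (psma6l, psmb3 and psmb7), against 21% of all genes. With the main scaling, what the members showed was a shared position, lowest in C, that was clearest in the 20S core. C had the lowest group mean for 27 of 37 members and for 13 of 16 core genes, whereas it was lowest for 28.5% of all genes. Ti had the highest mean for 19 members, Sd for 11, Td for 4 and C for 3, against 26.4%, 20.9%, 22.2% and 30.6% of all genes. These orders were counted with the main scaling only. With normexp background correction the members' median in Sd against C was 0.37, against 0.34 for all genes. Relative to all genes the core median was then 0.16 and the 19S median -0.02.

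On each array the median member was set against the median of all genes, both as deviations from a gene's mean over the 12 arrays. The members lay below all genes on each C array, at -0.37, -0.08 and -0.23. They lay above all genes on each Sd array, at 0.04, 0.30 and 0.24. The Ti arrays gave -0.06, 0.29 and -0.14, and the Td arrays -0.19, -0.09 and 0.07. C and Sd therefore did not overlap in this measure, while Ti and Td each lay on both sides of 0.

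**Figure D1:**
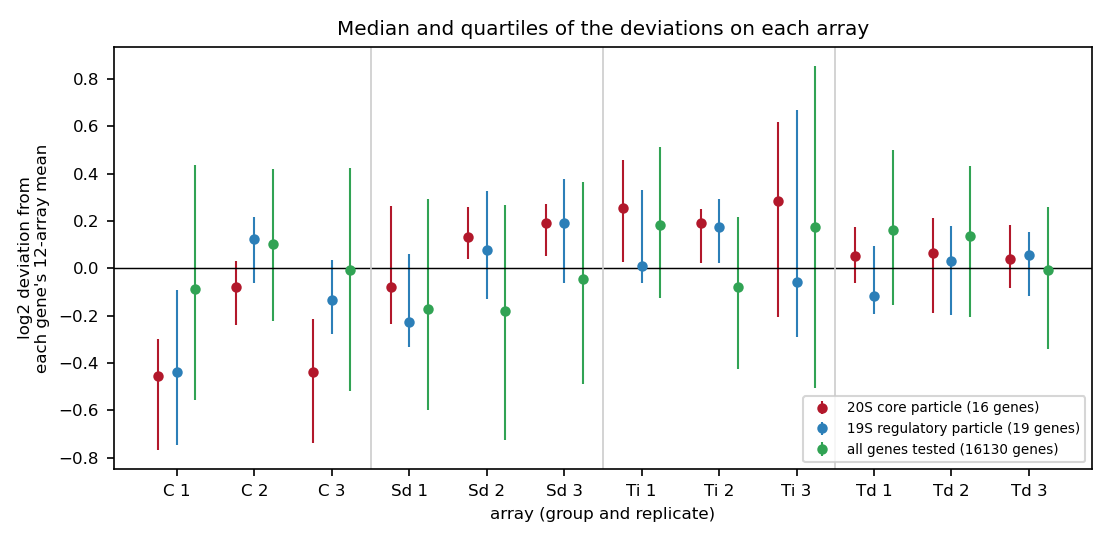
Median (point) and quartiles (line) of the log2 deviations from each gene's mean, for 16 genes of the 20S core, 19 genes of the 19S regulatory particle and all 16130 genes, on each of 12 arrays. The core genes lie below all genes on the 3 C arrays and above them on the 3 Sd and 3 Ti arrays, whereas the 19S genes show this order less regularly.

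In Sd against C the members were offset from the other genes. The log2 difference between Sd and C was positive for 30 of 37 members and for 43% of all genes. Its median was 0.30 among the members and -0.13 among all genes, so that the members stood 0.44 higher, or 0.034 with normexp background correction and 0.15 with no filter on dim probes. With the main scaling this was the largest offset of the 5 comparisons, which it was not under either of these alternatives. Of the members, 33 lay above the median of all genes. At an unadjusted p under 0.05, 3 members (8.11%) were higher in Sd and 0 lower, against 8.47% higher and 14% lower of all genes. The share higher was close to this background. The share in either direction, 8.11%, was below the 22.5% of all genes. An adjusted p under 0.05 was reached by 4.3% of all genes and by 0 members, the smallest being 0.080. That background was 694 genes, but 0 without the second Sd array, 1 without the third C array, 7 with normexp background correction and 0 with no filter on dim probes. The same array number was taken to mark a shared slide. The labels do not name a slide, and "slide" here and below means only this number. Same-numbered C and Sd arrays deviated together, with correlations of 0.26 to 0.56. Unlike-numbered C and Sd arrays gave -0.49 to 0.33, the highest being C 2 with Sd 3. With slide as a block, 7 members had an unadjusted p under 0.05 (6 higher, 1 lower) and 1, psmb3, an adjusted p of 0.049.

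The difference was largest in the core. All 10 alpha-ring genes had a positive difference (0.03 to 1.12, median 0.59), as did 5 of 6 beta-ring genes (median 0.30), with psmb7 the exception at -0.09. All 16 core genes lay above the median of all genes. Among the 19S genes 13 of 19 were positive, with a median of 0.22, and the medians of its parts were 0.22 for the ATPases, 0.16 for the other base subunits and 0.25 for the lid. Relative to all genes the core median was 0.61 and the 19S median 0.35, which became 0.16 and -0.02 with normexp background correction, and 0.53 and 0.16 without the first C array. The median over all members, relative to all genes, was 0.51, 0.36 and 0.49 within the 3 slides, and of 36 members measured on all 3 slides 21 were higher in Sd on each (22.8% of all genes) and 2 lower on each (34.7%).

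The largest member in this comparison was psmb3, a beta-ring subunit without proteolytic activity. Its level was -2.35, -1.05 and -2.05 on the C arrays and -1.03, -0.44 and -0.37 on the Sd arrays. The Ti arrays gave -0.95, -1.04 and -1.31, and the Td arrays -1.47, -1.10 and -1.08. All Sd arrays lay above all C arrays, although Sd 1 and C 2 were nearly level, and the dsRNA groups lay between the group means of C and Sd. The difference of 1.20 (SE 0.36) corresponded to 2.30-fold and had an adjusted p of 0.080, which became 0.033 without the second C array.

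psma6l, a zebrafish gene of the psma6 type in the alpha ring, stood out under both injections. It measured -1.98, -0.80 and -1.47 on the C arrays and -0.80, -0.33 and -0.30 on the Sd arrays. On the Ti arrays it measured 0.11, 0.22 and -0.08, and on the Td arrays -0.66, -0.25 and -0.30. C was lowest, Ti highest, and Sd and Td covered similar ranges. The Sd against C difference was 0.94 (SE 0.32, adjusted p 0.12), with groups that met at -0.80 but did not overlap.

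psma2b, 1 of the duplicated zebrafish genes for the alpha-ring subunit psma2, measured -1.52, -1.72 and -2.04 in C and -0.95, -1.05 and -1.09 in Sd. It measured -0.97, -1.11 and -1.79 in Ti and -1.18, -1.23 and -1.41 in Td. C and Sd were well separated, and only the third Ti array reached the range of C. The difference was 0.73 (SE 0.28, adjusted p 0.16). Its duplicate psma2a differed by 0.47 (SE 0.26), with both of its probes positive.

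In total 8 members (21.6%) had Sd arrays above all C arrays, and 11% of all genes did. Besides these 3 genes they were psma4 (0.51), psma6a (0.80), psmc3 (0.54), psmd10 (0.54) and psmd11a (0.29), none with an adjusted p under 0.05. psmc3 is a base ATPase, psmd10 (gankyrin) a 19S assembly chaperone and psmd11a a lid subunit. psmd4a and psmd8 (5.41%) had Sd below all C arrays, against 18.1% of all genes. psmd4a, a ubiquitin receptor, averaged -0.21, but its probes disagreed, at 0.19 and -0.62. psmd8, a lid subunit, stood at -1.09 (SE 0.50, adjusted p 0.22), and 1 of its 2 probes was not well above background on any Sd array.

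Cell type markers moved in the same comparison. All 6 measured markers of microglia and leukocytes were higher in Sd than in C (median 1.27), and coro1a (1.84), apoeb (1.06) and mpeg1.1 (1.06) had an adjusted p under 0.05. These calls held in 19, 8 and 10 of 23 alternatives, and none held without the second Sd or the third C array, with normexp or with no filter, although the differences stayed positive (lowest 0.91). Their summed level was 2.19 to 2.49 on the C arrays, 3.45 to 3.82 on Sd, 3.07 to 3.502 on Ti and 3.04 to 3.45 on Td. All 8 measured neuronal markers were lower in Sd (median -0.89), of which elavl3 had a difference of -1.95 (adjusted p 0.030, or 0.13 without the second Sd array, and 0.17 in place of -1.95 with normexp). The neuronal sum was 2.61 to 3.31 on C and 1.95 to 2.51 on Sd, and all 4 measured myelin markers were lower too (median -0.89). The part of cell type makeup in the subunit genes' difference was not tested.

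**Figure D2:**
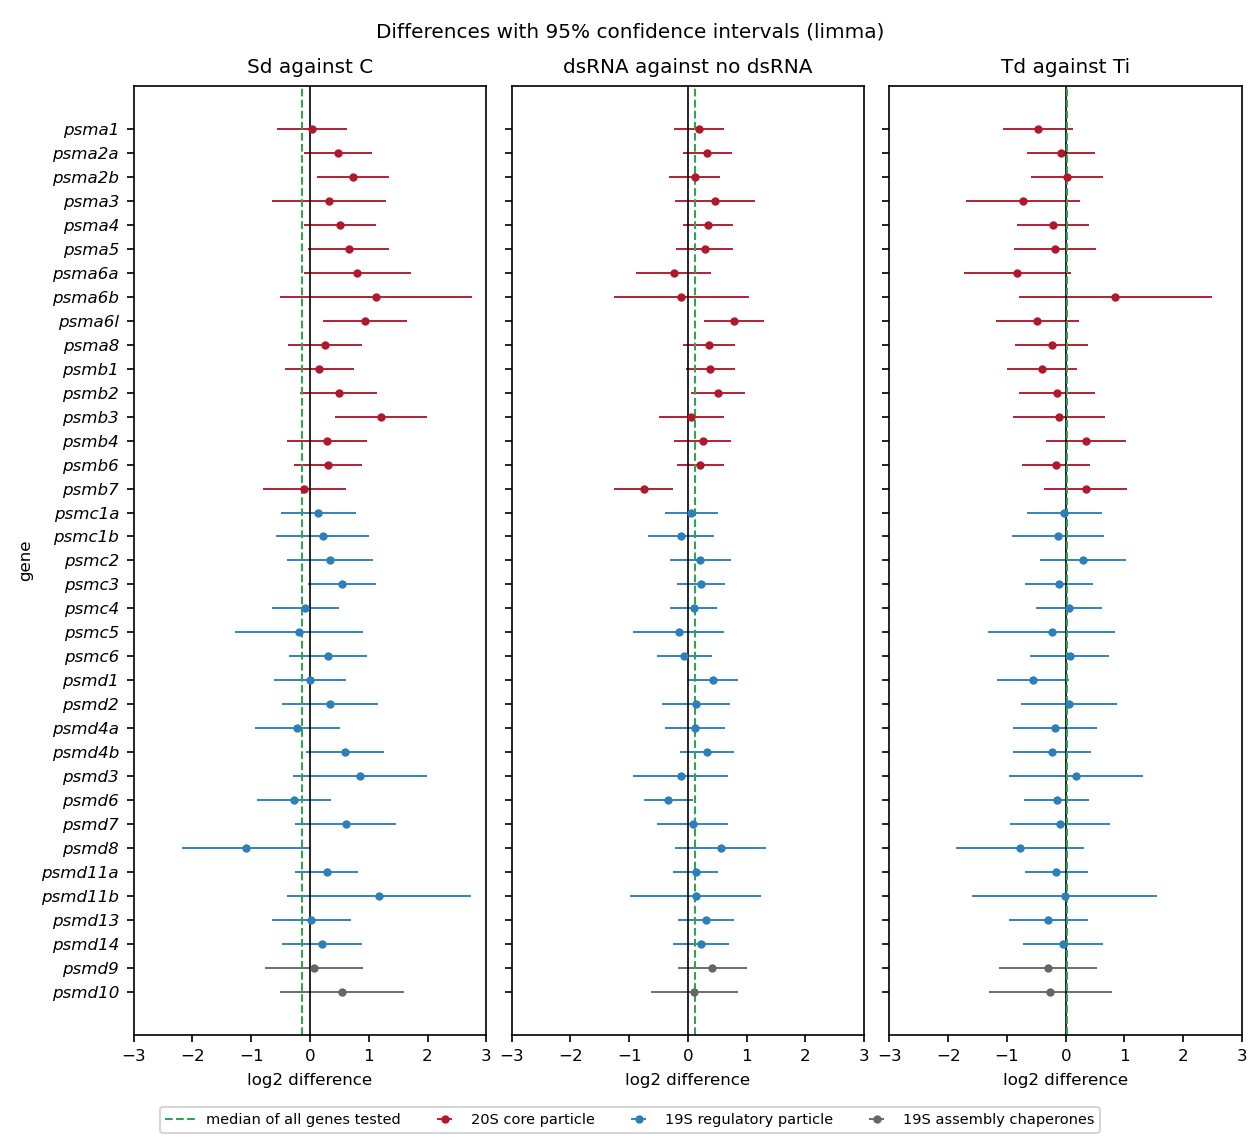
Log2 difference with its 95% confidence interval for each of 37 genes in 3 comparisons, in the order of the subcomplexes, with the median of all genes as a dashed line. In Sd against C all 16 core genes lie to the right of the dashed line, in dsRNA against no dsRNA psmb7 lies alone at -0.75, and in Td against Ti 28 of 37 genes are below 0.

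Injection of dsRNA was compared as the mean of Ti and Td against the mean of C and Sd. The difference was positive for 29 of 37 members, and for 60.4% of all genes. The members' median was 0.19 and that of all genes 0.12. Two-sided unadjusted p-values under 0.05 were found for 2 members higher (5.41%) and 1 lower (2.70%), against 12.4% and 4% of all genes. No member had an adjusted p under 0.05, against 1.62% of all genes, and the smallest was 0.12. The shares of members past these thresholds were below the background, and the median member lay 0.07 above that of all genes, or 0.021 without the second Ti array. The other side of this comparison averages C and Sd. On single arrays the median member lay below all genes in C and above them in Sd. The dsRNA groups were not compared with Sd alone.

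The particles differed somewhat in position. The core median was 0.27 with 13 of 16 genes positive, and that of the 19S particle was 0.13 with 14 of 19 positive, close to all genes. Of the 19S parts, the ATPases had the lowest median (0.06), the base subunits without ATPase activity stood at 0.23 and the lid at 0.13. Differences in the ATPases ran from -0.16 for psmc5 (95% confidence interval -0.93 to 0.61) to 0.22 for psmc3. The median SE of a member was 0.22. All 5 measured markers of skeletal muscle were lower with dsRNA (median -0.92), and tpma fell by 2.09 (adjusted p 0.027, and 0.0026 to 0.13 over 23 alternatives, of which 15 were under 0.05). All 6 microglia and leukocyte markers were higher (median 0.57). Their part in the members' values was not tested.

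psma6l had the largest positive difference, 0.79 (SE 0.23, 1.72-fold, adjusted p 0.12), and was positive within each slide, at 1.11, 0.55 and 0.69. The array values above show that this rests on C being low and Ti high, while Sd and Td overlapped. psmb2, a beta-ring subunit without proteolytic activity, measured 0.69, 1.26 and 1.19 in C and 1.24, 1.65 and 1.70 in Sd. It measured 1.67, 1.57 and 2.38 in Ti and 1.74, 1.75 and 1.70 in Td. The Td arrays were almost identical and touched the highest Sd array. The difference was 0.51 (SE 0.21, adjusted p 0.25).

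psmb7 went the other way. It encodes the subunit with trypsin-like activity, which the interferon-inducible psmb10 replaces in the immunoproteasome of mammals. It measured -0.62, -0.20 and -0.33 in C and -0.50, -0.51 and -0.42 in Sd. It measured -0.89, -1.16 and -1.997 in Ti and -0.62, -1.18 and -1.24 in Td. All 6 dsRNA arrays lay below all 6 others, although Td 1 and C 1 met at -0.62. The difference was -0.75 (SE 0.23, 0.594-fold, adjusted p 0.14), with -0.20, -0.81 and -1.24 within the slides and -0.59 without the third Ti array, the dimmest. psmb7 was the only 1 of 37 members (2.70%) whose dsRNA arrays all lay lower, against 0.279% of all genes, and no member had all of them higher (1.69% of all genes). The psmb10 difference, for comparison, was 0.62 (SE 0.32, adjusted p 0.35). psmb10 measured 0.17, -1.10 and -1.47 in Ti and -0.37, -1.37 and -1.42 in Td. On the C and Sd arrays it ran from -2.16 to -1.22. Ti 1 and Td 1 lay highest, and Ti 3, Td 2 and Td 3 lay within the range of C and Sd.

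**Figure D3:**
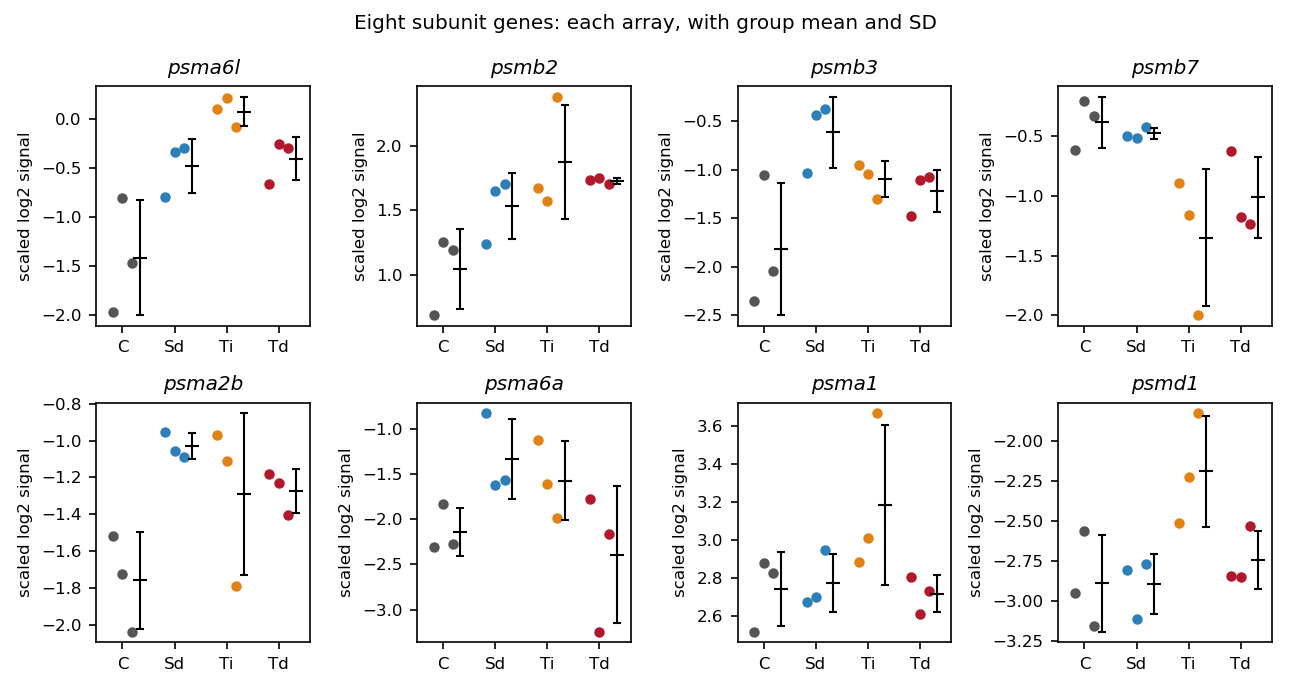
Scaled log2 signal of 8 subunit genes on each of 12 arrays (points, 3 per group) with the group mean and SD beside them (black), each panel on its own axis. In psmb7 the Ti and Td arrays lie at or below -0.62, and in psma6l the C arrays are low (-1.98 to -0.80) and the Ti arrays high (-0.08 to 0.22).

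Ti and Td were each compared with C and Sd, and these comparisons share all 6 control arrays. In Ti, 30 members were positive (58.1% of all genes) with a median of 0.22, against 0.11 for all genes. Unadjusted p-values under 0.05 were found for 5 members higher (13.5%: psma6l, psmb1, psmb2, psmd1 and psmd8) and for psmb7 lower (2.70%), against 10.6% and 3.48% of all genes. Of these, psmd1 includes a probe that was well above background on no C or Sd array and psmd8 a probe that was so on no Sd array, and the psmd1 probe measured on all 12 arrays gave 0.29. In Td, 27 members were positive (62.7% of all genes) with a median of 0.13, against 0.15 for all genes, and no member had an unadjusted p under 0.05, against 7.9% higher and 3.38% lower of all genes. No member had an adjusted p under 0.05 in Ti (1.31% of all genes) or in Td (0.298%). Ti arrays lay above all C and Sd arrays for 3 members (psma6l, psmb1 and psmd1) and below them for psmb7, against 3.92% and 1.22% of all genes. Td arrays lay above them for psmb2 and below them for psmb7, against 4.82% and 1.65%. The core median was 0.37 in Ti and 0.19 in Td. psma6l stood at 1.03 (SE 0.28, adjusted p 0.12) in Ti and 0.54 (adjusted p 0.50) in Td, and psmb7 at -0.92 (adjusted p 0.16) and -0.58 (adjusted p 0.47). Without the third Ti array the count in Ti was 2 members in place of 6, and with slide as a block it was 11.

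Behavioural fever was addressed by Td against Ti, both injected with dsRNA. The difference was negative for 28 of 37 members, whereas 51.7% of all genes were positive, and the median was -0.16 against 0.02. No member had an unadjusted p under 0.05, where 4.41% of all genes had one (1.62% higher, 2.78% lower). None of the 16130 genes tested had an adjusted p under 0.05. With the percentile taken over all probes, 20 of 37 members were positive with a median of 0.01 against 0.18 for all genes, so that the count of negative members depended on the scaling. The members' median lay 0.17 below that of all genes under both percentiles. A percentile shifts all genes of an array alike, so this gap could not change between them. With no filter on dim probes the members' median lay 0.93 above that of all genes. The median relative to all genes was -0.16, -0.25 and -0.02 within the slides. Of 36 members measured on all 3 slides, 11 were lower in Td on each (10.8% of all genes) and 0 higher on each (14.1%). Markers of other cell types also moved. Both tested pituitary markers, of 5 listed, were higher in Td (median 2.17). So were 7 of 8 neuronal markers (0.22), 3 of 4 of myelin (0.46) and 3 of 4 of radial glia (0.42). Positive differences were found for 3 of 5 markers of skeletal muscle (0.15) and 2 of 6 of microglia and leukocytes (-0.06). Erythrocytes had 1 of 3 (-0.45) and photoreceptors 0 of 3 (-0.02). No marker had an adjusted p under 0.05. Their part in the members' difference was not tested.

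The 3 members with the smallest p belonged to the alpha ring and the base. psma6a, the first of the psma6 duplicates, measured -1.12, -1.61 and -1.99 in Ti and -1.78, -3.24 and -2.16 in Td. In C it measured -2.31, -1.83 and -2.28, and in Sd -0.83, -1.62 and -1.56. Td overlapped Ti and C, and Td 2 was low. The difference was -0.82 (SE 0.41, adjusted p 0.99), or -0.40 without Td 2. The duplicate psma6b had a difference of the opposite sign (0.85), and it was well above background on 2 of 3 Ti arrays.

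psmd1, a scaffold of the base, measured -2.51, -2.23 and -1.83 in Ti and -2.84, -2.85 and -2.53 in Td. It measured -2.95, -2.56 and -3.16 in C and -2.81, -3.11 and -2.77 in Sd. All Ti arrays lay above all other arrays, with Td 3 and C 2 nearest to them. The difference between Td and Ti was -0.55 (SE 0.28, adjusted p 0.99), and both probes were lower in Td, at -0.39 and -0.71. The second of these probes was well above background on only 3 arrays, 1 of Ti and 2 of Td, and on no C or Sd array. Both together gave 0.70 for Ti against C and Sd.

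psma1, an alpha-ring subunit, measured 2.88, 3.01 and 3.67 in Ti and 2.81, 2.62 and 2.73 in Td. It measured 2.52, 2.88 and 2.83 in C and 2.68, 2.70 and 2.95 in Sd. Only Ti departed from the others, mainly on Ti 3, and Ti 1 lay within the range of Sd. The difference was -0.47 (SE 0.27, adjusted p 0.99), or -0.23 without Ti 3. With psma6l these were the 3 members (8.11%: psma1, psma6l and psmd1) whose Td arrays all lay below Ti, against 4.1% of all genes, and no member lay above (5.18%).

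Over the 12 arrays, pairs of members had a mean Pearson correlation of 0.21, against 0.03 for pairs of all genes. It was 0.37 in the alpha ring, 0.11 in the beta ring, 0.20 among the ATPases and 0.06 in the lid, and 0.23 between core and 19S genes. Taken on deviations from the group means, which leave out the differences between groups, the members' mean was 0.09 and that of all genes 0.03. These are descriptions of 12 arrays that differed in brightness and may share slides. psma6l followed the others most closely (mean 0.46), whereas psmb7 (-0.22), psmc5 (-0.18) and psmd8 (-0.13) ran against them.

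**Figure D4:**
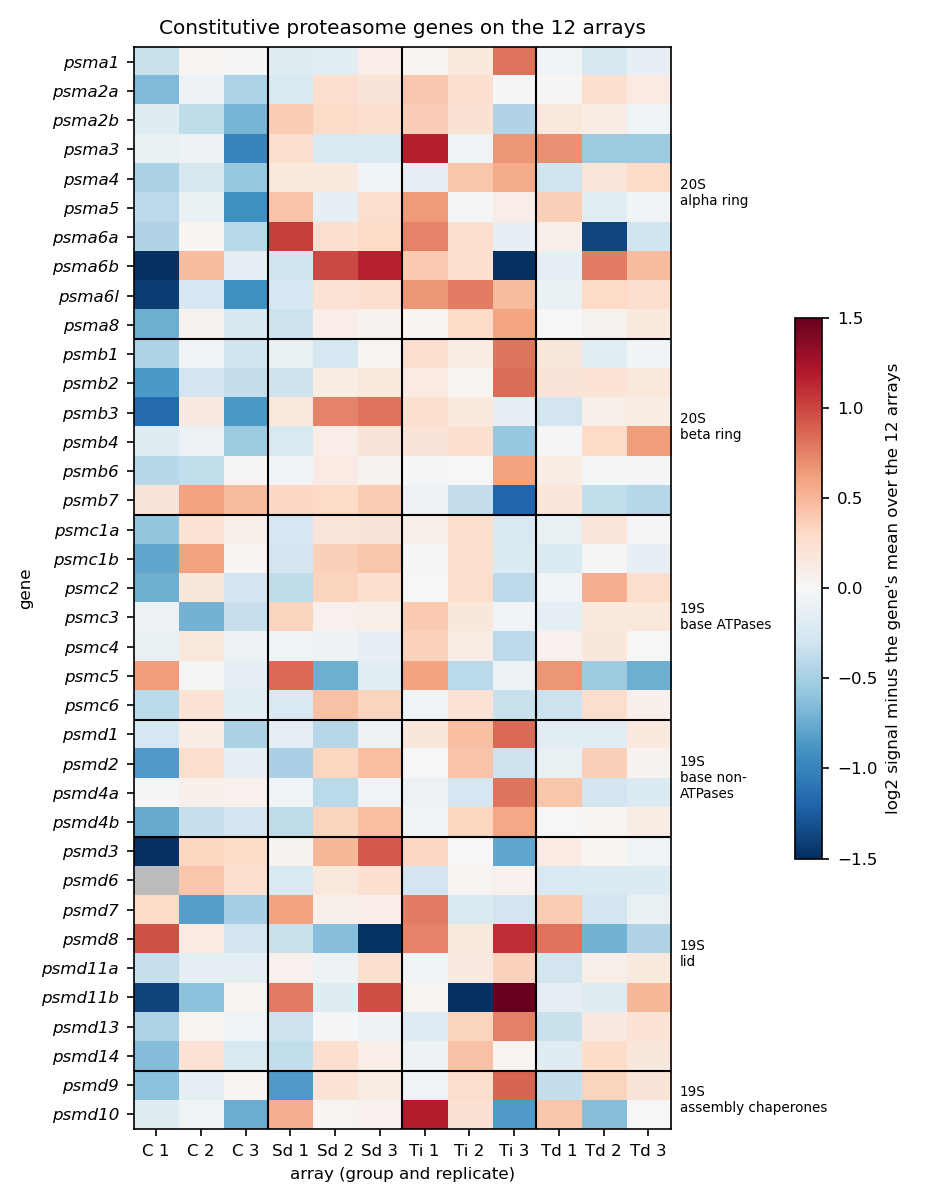
Log2 signal of 37 subunit genes (rows, by subcomplex) on the 12 arrays (columns), as deviations from each gene's mean, limited to 1.5 in colour; grey marks the psmd6 spot left out. The alpha-ring rows are mostly blue on the C arrays, psmb7 is red on C and Sd and blue on most dsRNA arrays, and the rows are most varied on the third Ti array.

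The regulators of the core were read beside its subunits. Of 17 genes listed as activators, inhibitors and assembly factors, 11 were tested. With dsRNA 7 of these were positive (63.6%, against 60.4% of all genes). At an unadjusted p under 0.05, 3 were higher (27.3%, against 12.4% of all genes). Only psmf1 had an adjusted p under 0.05, against 1.62% of all genes. psmf1, named for its inhibition of the isolated core, measured -3.10, -1.96 and -2.33 in C and -2.22, -1.74 and -1.63 in Sd. It measured -0.40, -0.12 and -0.14 in Ti and -1.42, -1.52 and -1.30 in Td. All Ti arrays lay above all Td arrays, and all of these above all C and Sd arrays. It rose by 1.35 with dsRNA (SE 0.22, 2.54-fold, adjusted p 0.014) and by 1.94 in Ti (SE 0.28, 3.84-fold, adjusted p 0.0051). In Td the difference was 0.75 (SE 0.28, adjusted p 0.35). Between Td and Ti it was -1.19 (SE 0.32, adjusted p 0.77), although the groups did not overlap and each slide gave a negative value (-1.02, -1.40 and -1.16). Both psmf1 probes gave a positive dsRNA difference, at 1.32 and 1.37. The dsRNA call had an adjusted p of 0.082 with normexp background correction, 0.16 with no filter on dim probes and 0.052 without the third Td array. The Ti call had an adjusted p of 0.071 with no filter. With the Ti and Td labels exchanged the difference in Ti was 0.75 (adjusted p 0.35) and the call moved to Td, and in the series table it was 0.68 (adjusted p 0.48).

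psme2, a subunit of the PA28 activator that opens the core, measured -0.86, -1.03 and -0.87 in C and -0.12, -0.17 and 0.16 in Sd. It measured 0.45, 0.04 and 0.40 in Ti and 0.00 (0.0046), 0.08 and 0.29 in Td. C lay far below the other groups, which overlapped. Sd against C was 0.87 (SE 0.24, adjusted p 0.066, or 0.039 with slide as a block), and dsRNA against no dsRNA was 0.69 (SE 0.17, adjusted p 0.073, or 0.046 with the block). Its partner psme1 gave 1.93 in Sd against C (SE 0.67, adjusted p 0.13, or 0.049 with the block) and was measured on 2 Td arrays. pomp, which matures the core, gave 0.67 with dsRNA (SE 0.26, adjusted p 0.22).

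**Figure D5:**
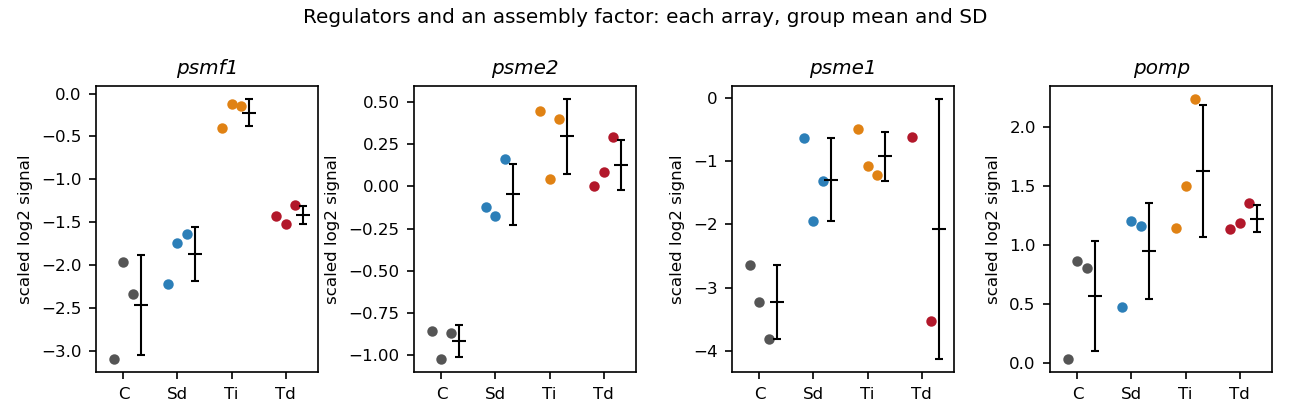
Scaled log2 signal of psmf1, psme2, psme1 and pomp on each array (points) with the group mean and SD (black), each panel on its own axis, 3 arrays per group except 2 Td arrays for psme1. psmf1 is highest on the Ti arrays (-0.40 to -0.12), and psme2 is lowest on the C arrays (-1.03 to -0.86).

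In the same list, ube3c, a ubiquitin ligase that associates with the proteasome, stood at 0.76 in Ti (adjusted p 0.18) and at -0.78 in Td against Ti (adjusted p 0.99). The core assembly chaperone psmg3 stood at 1.16 in Td against Ti (adjusted p 0.99), and its relative psmg2 at 0.73 in Sd against C (adjusted p 0.17). Of 22 genes for ubiquitin supply, delivery and transcriptional control, 12 were tested and 0 passed the adjusted p in any comparison. By unadjusted p under 0.05 they were ngly1, which processes a transcription factor of proteasome genes in mammals, at 1.29 in Ti (adjusted p 0.24) and -1.32 in Td against Ti, rad23b, a shuttle for ubiquitinated proteins, at 0.97 in Sd against C (adjusted p 0.16) and -0.92 in Td (adjusted p 0.34), and vcp, a segregase upstream of the proteasome, at 0.86 in Sd against C (adjusted p 0.20). ngly1 had a low signal, from -7.48 on C 3 to -4.96 on Sd 3 on this scale. Of these 12 genes, 8.33% were higher in Ti at this threshold and 16.7% in Sd against C (10.6% and 8.47% of all genes). Lower were 8.33% in Td and 8.33% in Td against Ti (3.38% and 2.78% of all genes). Of 11 immunoproteasome genes 5 were tested. Their median dsRNA difference was 0.74 with 4 of 5 positive, and none had an unadjusted p under 0.05, with SEs between 0.32 for psmb10 and 1.05 for psmb12.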

How the data were processed

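RNA from pooled brains was hybridised by the authors to single-colour arrays and scanned with Feature Extraction (10.7.3.1 per the file headers). The intensity values used were the deposited processed signals, background-subtracted by the scanner software. The deposited series table holds values on a natural log scale, matched to the arrays within 0.001, and it carries the Ti and Td columns exchanged. It was used as an alternative. Spots flagged as outliers were left out, spots of a probe were averaged, and log2 signals were taken relative to each array's 75th percentile over the 5274 probes well above background on all 12 arrays. This narrower percentile was chosen because many features were not detected on each array, with 14.5% to 50% well above background. Probes well above background on at least 3 arrays were kept (19136), and a gene's probes were joined by their median. Group means were fitted with limma 3.58.1 in R 4.3.3 over 16130 genes. The fit was also run on simulated data with independent noise of the same spread on all arrays. Those data lack the unequal brightness and shared deviations of these arrays, so they do not show how the fit performs here. Replicates are pools, so p-values rest on the spread between pools within groups, and 3 pools per group limit the precision. Each gene had 1 spread, shared by the 4 groups and moderated over all genes. The p-values for Sd against C therefore also use the Ti and Td pools. Without the third Ti array 1410 genes had an adjusted p under 0.05 in Sd against C, and 694 with it. Array number was taken as the slide, which gives 3 slides with 1 array per group on each. The sample titles number the arrays but do not name a slide. Same-numbered C and Sd arrays correlated in their deviations (0.26 to 0.56), which the other pairs of groups did not all do. Between same-numbered Ti and Td arrays the correlations ran from -0.20 to 0.17. Of the unlike-numbered C and Sd arrays, C 2 and Sd 3 correlated at 0.33, and the others at -0.49 to 0.06. Members, lists and tests were chosen with earlier results of these data known. Full statistics are given for the 3 members with the smallest p in each of 3 comparisons, and pathway genes are named at an unadjusted p under 0.05. Alternatives were the percentile, quantile normalization, normexp background correction (offset 50, on median signals), the filter, the mean over probes, array weights, a slide block, exchanged labels, the series table, and leaving out each array. Gene names came, for 16568 probes, from RefSeq accessions, and otherwise the systematic name in the files was used.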

Additional observations from a re-analysis of the deposited data

How the results depend on the processing

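Of the 9 results for single members with full statistics, each was recomputed under 23 alternatives. Of these 207 values, 193 kept their direction and side of the adjusted threshold, 8 passed it and 6 turned. Part of the differences could not move, although their p-values could. Leaving out or exchanging Ti and Td arrays cannot move Sd against C. Leaving out C or Sd arrays cannot move Td against Ti, and the slide block moves none of these differences. The count of values that kept their direction includes these. The 6 turned because the Ti and Td labels were exchanged: Td against Ti became 0.47 for psma1, 0.82 for psma6a and 0.55 for psmd1 with exchanged labels, and 0.13, 1.28 and 1.52 in the series table. psmf1 turned likewise in Td against Ti (1.19 and 1.29). The number of members with an adjusted p under 0.05 was 0 except as follows. Array weights, which give the third Td array the highest weight (4.70) and the third Ti array the lowest (0.203), took 2 members with dsRNA (psma6l and psmb7), 2 in Td, 4 in Sd against C and 2 in the test among the 4 groups. The slide block and the filter on all 12 arrays each took 1 in Sd against C (psmb3) and 1 in the test among the 4 groups. Leaving out each array in turn gave 0 to 1 in Sd against C.

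Counts at an unadjusted p under 0.05 moved more. In Sd against C they were 9 with the percentile over all probes, 5 with the 50th percentile, 6 with normexp, 7 with the filter on all 12 arrays, 11 with array weights, 7 with the block, 5 in the series table and 3 to 5 leaving out each array. In Ti they were 3 with the percentile over all probes, with quantile normalization and with normexp, 2 with no filter and in the series table, 11 with the block, 0 with exchanged labels, and 2 to 7 leaving out each array (2 without Ti 3 and 3 without Sd 2). In Td they were 1 with the 50th percentile, normexp or the block, 2 with the filter on all 12 arrays, 6 with array weights or exchanged labels, 5 in the series table and 0 to 2 leaving out each array. In Td against Ti they were 1 with normexp and in the series table, 2 with array weights and 0 to 3 leaving out each array. For dsRNA they were 7 with array weights and 2 to 5 leaving out each array.

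The members' median relative to all genes stayed positive for dsRNA and for Sd against C throughout. The dsRNA comparison averages C, where the median member lay below all genes, with Sd, where it lay above. The percentile, the slide block and exchanged labels could hardly move the relative median in these comparisons. Nor could leaving out a Ti or Td array for Sd against C. For dsRNA it was 0.21 with quantile normalization, 0.12 with normexp, 0.45 with no filter, 0.14 with the filter on all 12 arrays and 0.021 to 0.12 leaving out each array. For Sd against C it was 0.33, 0.034 and 0.15 with the first 3 of these, 0.54 with array weights and 0.32 to 0.55 leaving out each array. In Ti it was 0.35 with quantile normalization, -0.017 with exchanged labels and 0.07 to 0.19 leaving out each array. The members' own median in Ti was 0.22 with no filter, against 0.21 for all genes, and 0.14 in the series table, against 0.15. In Td the relative median was 0.85 with no filter, 0.11 with exchanged labels, 0.26 in the series table and -0.07 to 0.02 leaving out each array. In Td against Ti it was -0.37 with quantile normalization, -0.048 with normexp, 0.93 with no filter, 0.17 with exchanged labels, 0.25 in the series table and -0.22 to -0.09 leaving out each array. The causes were not tested. For Sd against C the median of all genes was -0.13 in the main analysis and 0.34 with normexp, where the members' offset was smallest. The members' own median was 0.30 and 0.37 in these settings. With no filter the median of all genes in Td against Ti was -1.09, which includes probes at background on the third Ti array, the dimmest.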
